A study of Mus musculus with 12 samples.

Results

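The 10 genes described here encode precursors of neuropeptides in the mouse brain: Npy, Sst, Vip, Penk, Pdyn, Tac1, Cck, Crh, Nts and Cartpt. They were taken by symbol from a table of 31208 genes, and each symbol stood on 1 line. The table holds long-read (nanopore) counts of PCR-amplified full-length cDNA from the brains of 12 C57BL/6 mice aged 8 weeks, 4 in each of 3 groups. The methods describe the animals as male. Sham mice were not made ischemic. Vehicle mice received saline into a cerebral ventricle on the day before a filament closed the left middle cerebral artery, and their brains were taken 6 h after ischemia. Lactate mice were treated alike except that the injection held lactate. The methods name D-lactate for it and the labels name lactate only. Whether sham mice were injected, and which part of the brain was taken for this sequencing, is not given in the sources used here, although the paper describes ischemic tissue for another assay as cortex, hippocampus and striatum. Groups are compared with sham to ask what ischemia does with each injection, and the 2 ischemic groups with each other to ask what the added lactate changes.

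A neuropeptide precursor is a long protein that is cut inside dense-core vesicles by prohormone convertases and trimmed into short signalling peptides, which are released during strong firing and act on G protein-coupled receptors. In the forebrain, Npy, Sst and Vip mark classes of cortical inhibitory neurons, Penk marks the striatal projection neurons that carry the D2 dopamine receptor, and Tac1 and Pdyn mark those that carry the D1 receptor. Cck is made by both excitatory and inhibitory cells, while Crh, Nts and Cartpt are best known from the hypothalamus and amygdala and are made in scattered forebrain cells too. Several of these genes have long served as examples of control by calcium and cAMP through the transcription factor CREB, which binds the cAMP response element (CRE).

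All 10 genes lie on GRCm38 as annotated by GENCODE mouse release 21. Npy (ENSMUSG00000029819) spans chr6:49822710-49829507, Sst (ENSMUSG00000004366) chr16:23889573-23890958, Vip (ENSMUSG00000019772) chr10:5639218-5647617 and Cck (ENSMUSG00000032532) chr9:121489824-121495694. Penk (ENSMUSG00000045573) spans chr4:4133531-4138819, Pdyn (ENSMUSG00000027400) chr2:129686565-129699844 and Tac1 (ENSMUSG00000061762) chr6:7554879-7565834. Crh (ENSMUSG00000049796) spans chr3:19693401-19695396, Nts (ENSMUSG00000019890) chr10:102481756-102490486 and Cartpt (ENSMUSG00000021647) chr13:99898489-99901091. Npy has the shortest transcript of those with 1 coding transcript, 566 bases, close to the read length of 500 bp below which reads had been discarded. Penk shares 499 bases with A830012C17Rik on the opposite strand, and whether the counting used strand is not given in the sources used here.

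RefSeq promoter windows of GRCm38.p6, each 250 bases before to 50 bases after a transcription start, were found for 8 of the 10 genes, and Penk and Crh had no entry. The windows were searched on both strands for the full CRE (TGACGTCA), its half-site (TGACG), of which each full CRE holds 2, and the AP-1 element bound by Fos and Jun proteins (TGANTCA). The full CRE was present in the windows of Sst and Cartpt, compared with 1.79% of 32851 promoter windows of the same length. A half-site was present in 6 of the 8 genes, compared with 20.8% of windows, and an AP-1 element only in Nts, compared with 7.81%. Neither Npy nor Pdyn, which has 2 windows, held any of these letters. A match of letters describes the window and does not show that a factor binds there. The windows below are those with a full CRE, with the AP-1 element and, as examples of a half-site alone, Vip and Tac1, while Cck also holds a half-site, at -47. They are written 5′ to 3′ along the gene, with the matched letters in capitals, which read CGTCA where the half-site lies on the other strand.
Sst: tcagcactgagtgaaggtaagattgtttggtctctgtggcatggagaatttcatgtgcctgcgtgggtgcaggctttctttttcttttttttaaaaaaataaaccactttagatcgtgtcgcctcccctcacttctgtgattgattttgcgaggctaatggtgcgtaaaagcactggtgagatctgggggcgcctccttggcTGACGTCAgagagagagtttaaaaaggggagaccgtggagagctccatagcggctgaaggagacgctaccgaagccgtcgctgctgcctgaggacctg
Cartpt: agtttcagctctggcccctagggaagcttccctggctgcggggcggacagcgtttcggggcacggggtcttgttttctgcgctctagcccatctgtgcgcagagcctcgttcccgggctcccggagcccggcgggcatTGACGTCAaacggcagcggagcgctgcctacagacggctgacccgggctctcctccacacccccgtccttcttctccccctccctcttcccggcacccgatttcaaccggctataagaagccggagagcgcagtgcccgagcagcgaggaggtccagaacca
Nts: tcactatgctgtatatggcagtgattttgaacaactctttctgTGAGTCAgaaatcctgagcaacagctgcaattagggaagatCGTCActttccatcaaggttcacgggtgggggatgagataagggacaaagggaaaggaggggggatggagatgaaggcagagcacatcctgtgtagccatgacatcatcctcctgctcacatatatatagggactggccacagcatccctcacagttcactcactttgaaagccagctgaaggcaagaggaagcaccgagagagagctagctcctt
Vip: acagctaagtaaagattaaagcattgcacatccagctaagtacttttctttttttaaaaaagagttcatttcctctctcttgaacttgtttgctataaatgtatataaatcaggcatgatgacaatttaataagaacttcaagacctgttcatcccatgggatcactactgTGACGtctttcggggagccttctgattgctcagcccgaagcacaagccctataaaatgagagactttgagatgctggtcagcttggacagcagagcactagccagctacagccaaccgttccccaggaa
Tac1: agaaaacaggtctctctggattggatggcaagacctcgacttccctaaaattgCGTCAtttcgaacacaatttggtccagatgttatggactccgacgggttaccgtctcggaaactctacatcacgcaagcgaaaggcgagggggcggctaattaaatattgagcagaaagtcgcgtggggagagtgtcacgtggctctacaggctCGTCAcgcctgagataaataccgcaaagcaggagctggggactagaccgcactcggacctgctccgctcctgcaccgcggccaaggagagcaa
The Sst window is chr16:23890795-23891094 on the minus strand, with its CRE beginning at -48 from the start. The Cartpt window is chr13:99900634-99900933 on the minus strand, with its CRE at -112. The Nts window is chr10:102490369-102490668 on the minus strand, with the AP-1 element at -207 and the half-site at -166. The Vip window is chr10:5638968-5639267 on the plus strand, with a half-site at -79, and the Tac1 window is chr6:7554811-7555110 on the plus strand, with half-sites at -197 and -43.

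Total counts ranged from 6815920 to 10677224 per mouse, so that 3 counts, taken as the floor, correspond to 0.281 to 0.440 CPM, a count relative to the library total. The labels do not state that mice were pooled, and the reads carry no molecular identifiers, so floors cover counting error only. All 10 genes were above the floor in all 12 mice and passed the filter on low counts in every comparison, a minimum CPM of 1 required of 4 or more of the 8 mice compared. The summed level of 8 neuron markers was 4629 to 6476 CPM in all mice, as a brain sample should hold, whereas 7 hypothalamic transcription factors (Sim1, Otp, Nkx2-1 and others) summed to at most 0.880 CPM. Vehicle mouse 2 stood apart with 1817 CPM of the choroid plexus gene Ttr, compared with 2.64 to 13.8 CPM in the other vehicle mice. Ttr was at 0.815 to 2.90 CPM in sham and 7.78 to 16.2 CPM in lactate mice. The hippocampal gene Spink8 was at 0.493 to 1.32 CPM in sham and 1.28 to 3.30 CPM in lactate mice. Both passed the filter for lactate against sham only through the lactate mice, so these values are a description and no test is given. Of the 3 hippocampal markers that passed the filter, 2 were lower with lactate. Against sham, lactate mice had lower levels of the oligodendrocyte genes Mog (-0.60) and Cnp (-0.53) and the microglial gene P2ry12 (-1.10). The endothelial gene Slco1a4 (-1.70) and the excitatory neuron gene Rorb (-0.74) were also lower (log2 differences, each with an edgeR adjusted p under 0.05). Other markers went the other way, with 2 of 5 oligodendrocyte, 4 of 6 microglial, 3 of 5 endothelial and 3 of 8 excitatory markers higher. The microglial markers summed to 227 ± 7.52 CPM in sham and 220 ± 9.87 CPM in lactate mice (SD, n = 4). P2ry12 was at 45.8 ± 5.03, 22.2 ± 6.84 and 20.9 ± 6.23 CPM in sham, vehicle and lactate mice. In vehicle mice, 2 of 6 microglial markers fell at that threshold and 1 was higher. The part of such markers in the lactate values below was not tested. In vehicle mouse 3 the 13 activity and CREB-related genes (Fos, Fosb, Npas4, Egr1 and others) summed to 2573 CPM, compared with 424 to 581 CPM in sham mice, 259 to 792 CPM in lactate mice and 282, 1134 and 332 CPM in vehicle mice 1, 2 and 4. Levels are of bulk tissue, in which fewer cells of a type and less RNA per cell cannot be told apart.

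Levels are given in CPM, as whole reads of full-length cDNA, and were not divided by transcript length. In sham mice they ran from Cck and Npy at the top to Nts and Crh at the bottom. Cck was at 434 ± 174 CPM (SD, n = 4) and Npy at 255 ± 20.7 CPM, and these ranges overlapped. Sst followed at 165 ± 13.6, Penk at 141 ± 38.3, Tac1 at 88.8 ± 20.2 and Vip at 64.4 ± 2.82 CPM. Of these, Penk overlapped with Sst and Tac1, and Tac1 with Vip. Pdyn was at 20.7 ± 5.73 and Cartpt at 17.0 ± 1.19 CPM, and their ranges overlapped. Nts was at 4.62 ± 1.92 and Crh at 3.57 ± 1.74 CPM, overlapping with each other but not with the rest. The interneuron peptides Vip, Npy and Sst and the peptide Cartpt varied least among sham mice, with coefficients of variation (CV) of 4.38%, 8.11%, 8.27% and 6.98%, and Crh the most, with 48.8%.

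**Figure D1:**
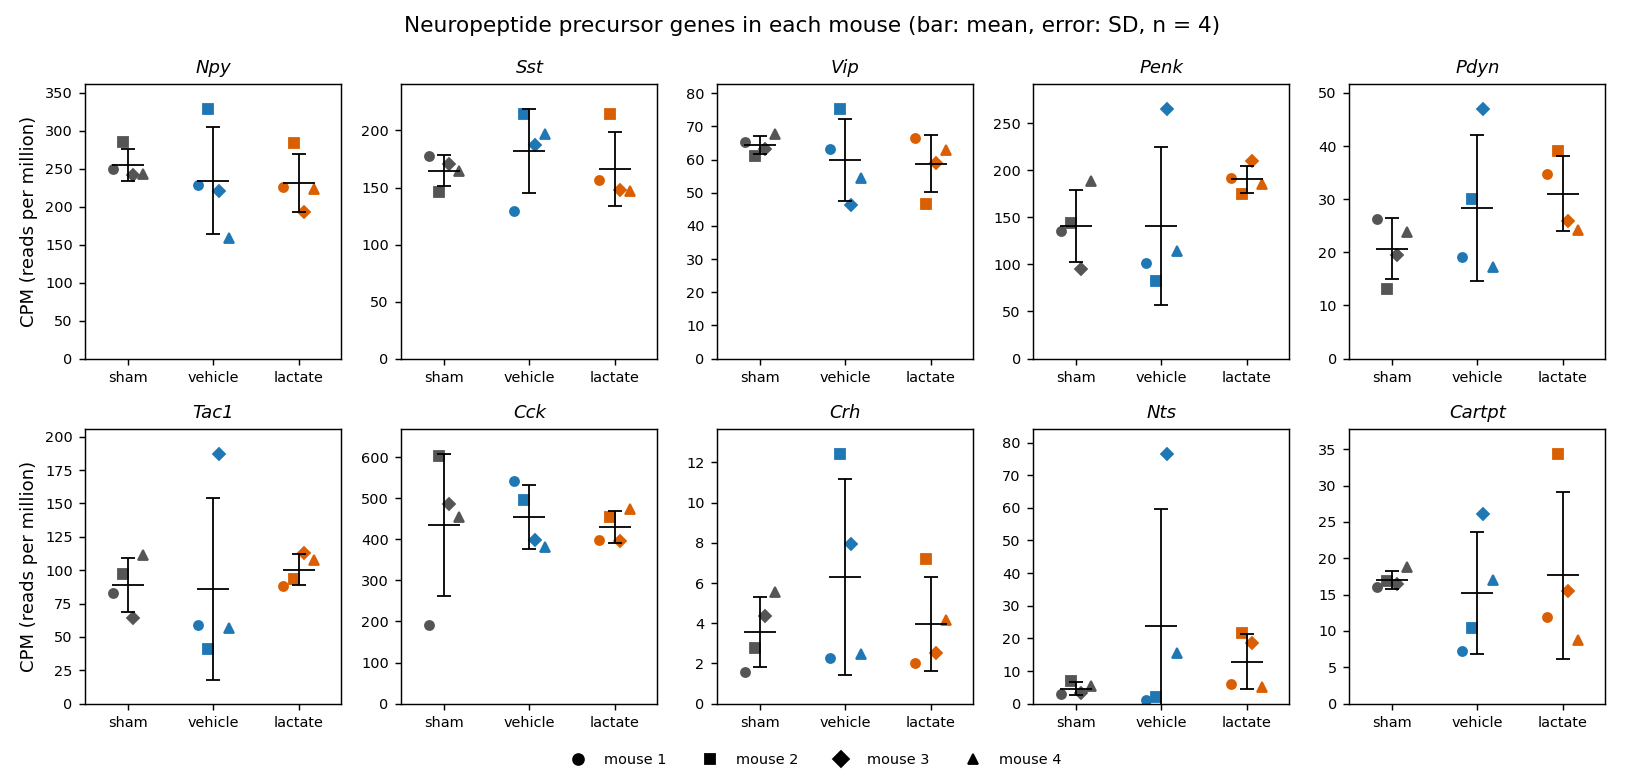
Level of each of the 10 genes in CPM (vertical axis, from 0, scaled per gene) in each mouse, by group; the symbol gives the mouse number, the bar the mean and the error bar the SD of 4 mice, cut at 0 for Nts in vehicle mice. Vehicle mouse 3 is the highest of the 12 mice for Penk, Tac1, Pdyn and Nts, and vehicle mouse 2 for Npy, Sst, Vip and Crh.

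The peptides of cortical interneurons did not pass the test in any comparison, and their groups overlapped. Npy encodes neuropeptide Y, an inhibitor of transmitter release, and was at 250, 286, 242 and 243 CPM in sham mice 1 to 4, at 229, 329, 221 and 158 CPM in vehicle mice and at 225, 284, 193 and 224 CPM in lactate mice. Sst encodes somatostatin, made by interneurons that target dendrites, and was at 177, 146, 171 and 165 CPM in sham, 129, 215, 187 and 197 CPM in vehicle and 156, 214, 148 and 147 CPM in lactate mice. Vip encodes vasoactive intestinal peptide, made by interneurons that inhibit other interneurons, and was at 65.4, 61.2, 63.2 and 67.7 CPM in sham, 63.2, 75.4, 46.2 and 54.6 CPM in vehicle and 66.5, 46.6, 59.1 and 63.0 CPM in lactate mice. The groups overlapped for all 3 genes. In vehicle mice, mouse 2 was the highest for Npy, Sst and Vip, and mouse 2 was also the highest lactate mouse for Npy and Sst but the lowest for Vip. The intervals of the fold changes bound what could have been missed: for lactate against sham the fold was 0.927 for Npy (95% interval 0.772 to 1.11), 1.03 for Sst (0.858 to 1.25) and 0.933 for Vip (0.775 to 1.12). For vehicle against sham the folds were 0.941 for Npy (0.710 to 1.25), 1.14 for Sst (0.900 to 1.43) and 0.954 for Vip (0.748 to 1.22). A 1.5-fold change in either direction lies outside each of these 6 intervals. The 12 markers of inhibitory neurons (Gad1, Gad2, Slc32a1, Lhx6 and others) summed to 914 ± 121 CPM in sham, 780 ± 160 CPM in vehicle and 730 ± 62.5 CPM in lactate mice (SD, n = 4), with overlapping ranges. About as much of that sum as all others together is Lamp5, at 473 ± 67.8, 380 ± 126 and 322 ± 65.9 CPM in the 3 groups, which fell with lactate against sham by 0.52 on the log2 scale (edgeR adjusted p = 0.0268). Gad1, which did not pass the test, was at 195 ± 27.5, 202 ± 41.2 and 210 ± 16.0 CPM. Divided by the sum of all 12, Npy was at 0.282 ± 0.0312, 0.299 ± 0.0541 and 0.321 ± 0.0724 in the 3 groups, Sst at 0.182 ± 0.0272, 0.245 ± 0.0844 and 0.231 ± 0.0618, and Vip at 0.0714 ± 0.0105, 0.0779 ± 0.0155 and 0.0804 ± 0.00920. Without Lamp5, left out after its values had been seen, the ratios were 0.583 ± 0.0613, 0.577 ± 0.104 and 0.566 ± 0.0747 for Npy, 0.377 ± 0.0545, 0.460 ± 0.110 and 0.406 ± 0.0683 for Sst and 0.148 ± 0.0220, 0.150 ± 0.0269 and 0.144 ± 0.0228 for Vip. The higher mean ratios of Npy and, in lactate mice, of Vip in the ischemic groups thus rested on Lamp5.

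The peptides of striatal projection neurons varied widely among vehicle mice. Penk encodes proenkephalin, the source of the enkephalins, and was at 135, 144, 95.1 and 188 CPM in sham mice, at 101, 82.4, 265 and 114 CPM in vehicle mice and at 192, 174, 209 and 186 CPM in lactate mice. Tac1 encodes the precursor of substance P and neurokinin A, and was at 82.7, 96.9, 64.1 and 111 CPM in sham, 58.8, 40.9, 187 and 56.3 CPM in vehicle and 88.0, 93.0, 113 and 107 CPM in lactate mice. Pdyn encodes prodynorphin, the source of the kappa opioid ligands, and was at 26.2, 13.2, 19.6 and 23.8 CPM in sham, 19.2, 30.0, 47.1 and 17.2 CPM in vehicle and 34.8, 39.0, 26.0 and 24.2 CPM in lactate mice. For Penk and Tac1, vehicle mouse 3 lay above every other mouse of the study, while the other 3 vehicle mice lay below all 4 lactate mice. With n = 4 per group, the vehicle mean was 141 ± 84.2 CPM for Penk and 85.8 ± 68.1 CPM for Tac1, and the sham mean was 141 ± 38.3 and 88.8 ± 20.2 CPM. Without vehicle mouse 3 the log2 fold change of vehicle against sham went from 0.028 to -0.46 for Penk and from -0.023 to -0.73 for Tac1, with edgeR adjusted p of 0.466 and 0.224.

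With lactate, Penk and Pdyn were higher than in sham but did not pass the test. Penk was at 190 ± 14.6 CPM in lactate mice (SD, n = 4), a log2 fold change of 0.46 with a standard error (SE) of 0.17 and an edgeR adjusted p of 0.0880. Pdyn was at 31.0 ± 7.06 CPM in lactate and 20.7 ± 5.73 CPM in sham mice, a log2 fold change of 0.62 (SE 0.21) with an edgeR adjusted p of 0.0706. Tac1 was at 100 ± 11.8 CPM in lactate mice, a log2 fold change of 0.20 (SE 0.16) with an edgeR adjusted p of 0.455. Each of Penk and Pdyn passed the threshold in 2 of 15 alternative analyses, Penk with limma voom (adjusted p = 0.0491) and without sham mouse 4 (0.0214), and Pdyn with DESeq2 (adjusted p = 0.0417) and without lactate mouse 4 (0.0456).

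Markers of the striatum also varied between mice. The 7 striatal markers (Drd1, Drd2, Adora2a, Ppp1r1b, Rgs9, Pde10a and Gpr6), all present, summed to 315 to 478 CPM in sham mice, 524 to 649 CPM in lactate mice and 548, 193, 510 and 182 CPM in vehicle mice 1 to 4. Vehicle mice 2 and 4 had the lowest sums, and all 4 lactate mice had more than any sham mouse, but without Ppp1r1b the sums overlapped, at 80.1 to 177 CPM in sham and 101 to 190 CPM in lactate mice. Most of the sum is Ppp1r1b, the dopamine-regulated phosphatase inhibitor DARPP-32, which rose with lactate by 0.67 on the log2 scale (edgeR adjusted p = 0.00565) and which overlaps 1700003D09Rik on the opposite strand, while Drd1 was at -0.18 and Drd2 at 0.27 without passing the test. Of the 7 markers, 4 were higher and 3 lower with lactate, and Ppp1r1b was the one called. Divided by the marker sum, Penk was at 0.333 ± 0.0443 in sham, 0.439 ± 0.188 in vehicle and 0.326 ± 0.0506 in lactate mice (SD, n = 4). The same ratio was 0.211 ± 0.0153, 0.249 ± 0.114 and 0.172 ± 0.0329 for Tac1, and 0.0511 ± 0.0170, 0.0943 ± 0.0493 and 0.0532 ± 0.0141 for Pdyn. These ratios depend on Ppp1r1b. Without it, left out after its values had been seen, they were 1.08 ± 0.0731, 1.40 ± 0.460 and 1.40 ± 0.312 for Penk, 0.691 ± 0.0820, 0.788 ± 0.263 and 0.733 ± 0.161 for Tac1 and 0.168 ± 0.0658, 0.316 ± 0.196 and 0.238 ± 0.111 for Pdyn, with groups that overlapped. Vehicle mouse 1 had a marker sum in the lactate range with the lowest ratios of the 12 mice for Penk and Tac1 over all 7 markers, 0.184 and 0.107. The part that the share of striatal tissue in each sample has in the levels was not tested.

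**Figure D2:**
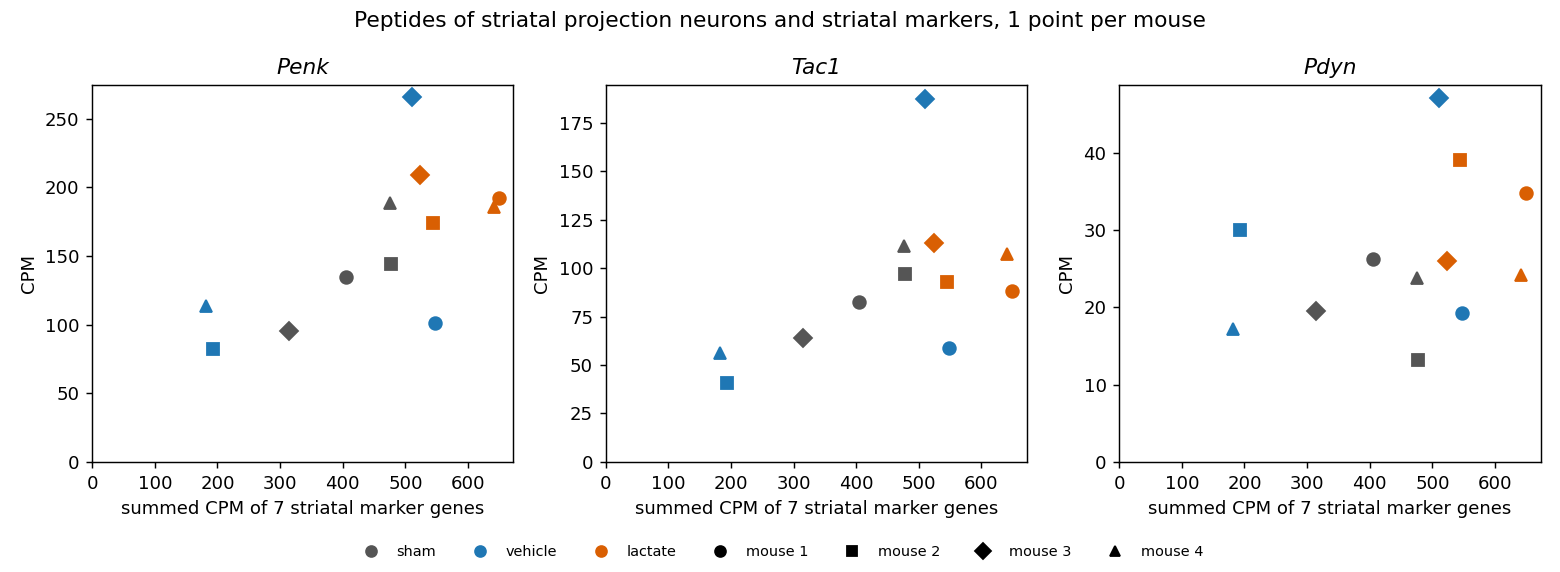
Level of Penk, Tac1 and Pdyn (vertical axis, CPM) against the summed level of 7 striatal marker genes (horizontal axis, CPM), 1 point per mouse, with the colour giving the group and the symbol the mouse number. Vehicle mouse 3 lies above the mice of similar marker sum for Penk and Tac1, and the 4 lactate mice lie at marker sums of 524 to 649 CPM.

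Nts, which encodes neurotensin, was the only one of the 10 genes with an adjusted p under 0.05 in any comparison. Its level was 2.90, 7.02, 3.26 and 5.30 CPM in sham mice, from 22, 63, 24 and 43 counts. In vehicle mice it was 1.03, 1.94, 76.6 and 15.4 CPM, from 11, 15, 615 and 105 counts. In lactate mice it was 6.09, 21.6, 18.5 and 5.10 CPM, from 45, 180, 140 and 44 counts. Lactate mice 2 and 3 lay above all sham mice, lactate mice 1 and 4 lay within the sham range, and the vehicle mice spread over a 74.3-fold range that held both the lowest and the highest level of the study. Nts rose in lactate mice against sham by 1.47 on the log2 scale (SE 0.45, 95% interval 0.51 to 2.44, edgeR adjusted p = 0.0474), or 2.78-fold. This call was made in 6 of 15 alternatives, with adjusted p from 0.0155 to 0.371, and was lost with DESeq2 (0.0788), with limma voom (0.0795), with all 12 mice in one fit (0.371), with only genes that have an Ensembl identifier (0.0536), and without any 1 of sham mice 1, 3 and 4 or lactate mice 2 and 3 (0.0880 to 0.146). In vehicle mice against sham the log2 fold change was 2.36 (SE 0.96), with an unadjusted p of 0.0300 and an edgeR adjusted p of 0.302. It fell to 0.38 without vehicle mouse 3, the mouse with the highest sum of activity genes, and the part of that sum in the level of Nts was not tested.

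The remaining 3 genes did not pass the test in any comparison. Cck encodes cholecystokinin, and was at 192, 604, 487 and 455 CPM in sham, 542, 495, 398 and 382 CPM in vehicle and 399, 454, 396 and 473 CPM in lactate mice, so that sham mouse 1 lay below the other 11 mice. Crh encodes corticotropin-releasing hormone, the stress peptide, and was at 1.58, 2.79, 4.35 and 5.55 CPM in sham, 2.25, 12.4, 7.97 and 2.49 CPM in vehicle and 2.03, 7.19, 2.51 and 4.17 CPM in lactate mice. Its largest fold, 1.79 for vehicle against sham, had a 95% interval of 0.809 to 3.96, with 12 to 96 counts behind each value and a CV of 77.6% among vehicle mice. Cartpt encodes the cocaine- and amphetamine-regulated transcript peptides, and was at 16.1, 16.8, 16.4 and 18.7 CPM in sham, 7.31, 10.4, 26.1 and 17.0 CPM in vehicle and 11.9, 34.4, 15.4 and 8.81 CPM in lactate mice. The 4 sham mice of Cartpt lay close together, and the mice of each ischemic group lay on both sides of them.

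Counted over the list, 0 of the 10 genes passed an edgeR adjusted p under 0.05 for vehicle against sham, where 1.47% of 17019 genes did. At an unadjusted p under 0.05 it was 1 gene, Nts, compared with 13.8% of all genes tested, and DESeq2 and limma voom also called 0. For lactate against sham 1 of 10 passed, compared with 12.3% of 17262 genes, and 3 had an unadjusted p under 0.05 (Nts, Pdyn and Penk), compared with 27.1% of all genes tested. For lactate against vehicle 0 of 10 passed, compared with 0.00574% of 17419 genes, and 0 had an unadjusted p under 0.05, compared with 8.84%, with 0 called by DESeq2 and limma voom as well. The shares of the 10 genes that passed are thus near the background in each comparison. At an unadjusted p under 0.05 with a 1.5-fold change, the counts were 1, 2 and 0 against backgrounds of 9.52%, 17.5% and 6.23%. The 2 comparisons with sham share their sham mice. The median log2 fold change of the 10 genes was 0.060, 0.14 and -0.043 for vehicle against sham, lactate against sham and lactate against vehicle, compared with 0.0031, -0.028 and -0.029 over all genes tested. Groups overlapped for all 10 genes in all 3 comparisons, whereas 9.03%, 19.1% and 4.81% of all genes tested had no overlap.

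**Figure D3:**
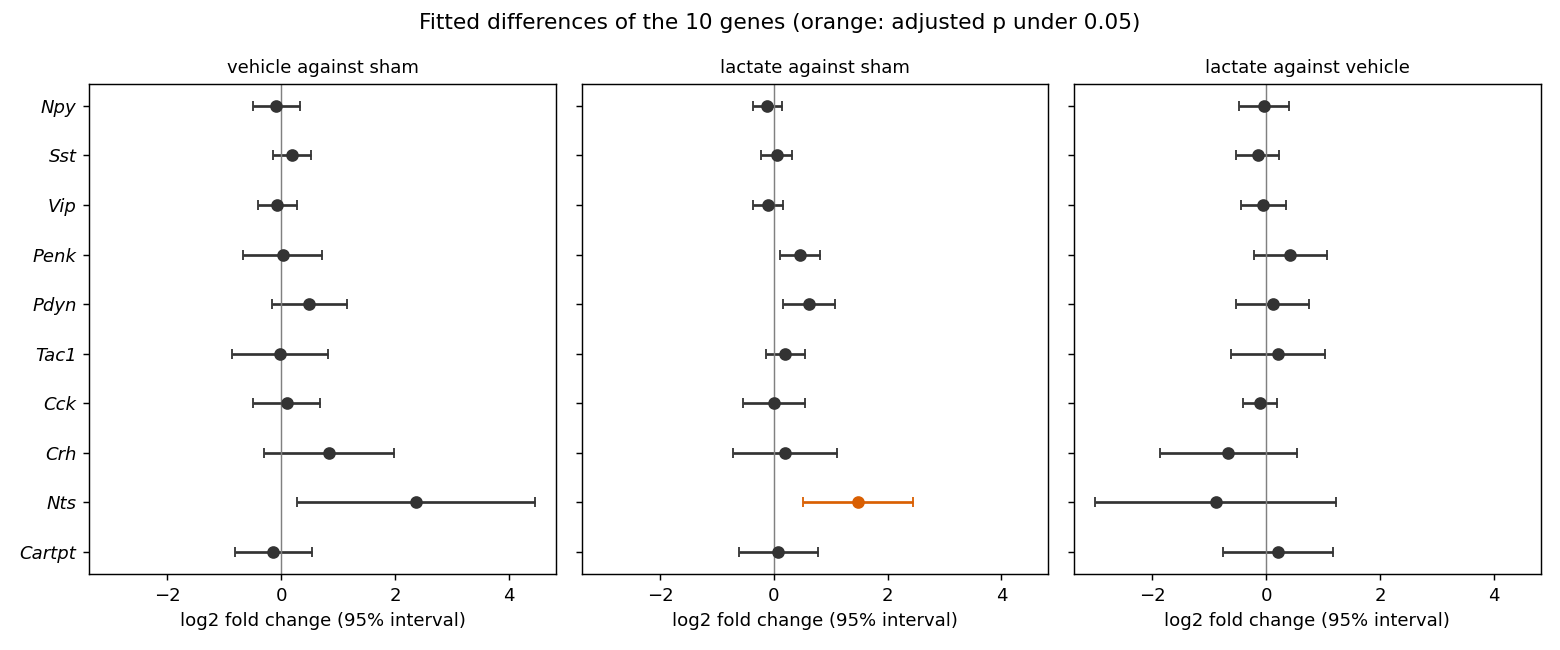
Fitted log2 fold change (horizontal axis) of each of the 10 genes in the 3 comparisons, with 95% intervals approximated from edgeR's F statistic. Orange marks an adjusted p under 0.05, which only Nts reached, for lactate against sham, at 1.47.

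Between the ischemic groups, lactate against vehicle, the fitted folds ranged from 0.540 for Nts (95% interval 0.125 to 2.34) to 1.34 for Penk (0.861 to 2.09). The narrowest interval was that of Cck, 0.759 to 1.15. Without vehicle mouse 3 the log2 fold change rested on 7 mice and was 0.92 for both Penk and Tac1, with edgeR adjusted p of 0.116 and 0.274, and the value of Nts turned from -0.89 to 1.09.

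Most of these genes varied more among vehicle mice than among the mice of the other groups. The CV was larger in vehicle than in sham mice for 9 of the 10 genes, Cck being the exception, compared with 66.1% of all genes tested, and the median CV of the 10 genes was 51.5% in vehicle, 25.0% in sham and 17.9% in lactate mice, beside 26.4%, 19.6% and 20.3% over all genes tested. Against lactate mice it was larger in vehicle mice for 9 of 10 genes, compared with 64.1% of all genes. Vehicle mice 2 and 3 held the highest level of all 12 mice for 4 genes each, and vehicle mouse 2 also the lowest level of Penk and Tac1. Vehicle mouse 1 held the lowest level of Sst, Nts and Cartpt. Its library had a chi-square per gene of 32.1 to 36.2 against each other vehicle mouse, compared with 14.6 to 16.7 among the others. Vehicle mouse 2 was the one with high Ttr and vehicle mouse 3 the one with high activity genes. The part of any of these in the spread was not tested.

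Deviations of each mouse from its group mean, on log2(CPM + 1), were compared with those of 13527 genes with an Ensembl identifier over the 12 mice, as a description. Penk and Tac1 were each other's closest gene of all those compared, with a Pearson r of 0.97 and a Spearman rho of 0.94. Nts and Cartpt also deviated together (r = 0.85), as did Nts with Penk and with Tac1 (r = 0.77 for both), while Vip ran opposite to Cartpt (r = -0.84) and to Nts (r = -0.83). Vehicle mouse 3 was the highest vehicle mouse for Nts, Cartpt, Penk and Tac1 and the lowest for Vip, and its part in these values was not tested. The gene most alike to Npy was Mrpl48 (r = 0.96), to Sst Sec61a1 (0.96), to Vip D130043K22Rik (0.89), to Pdyn Rgs4 (0.95), to Cck Gadd45gip1 (0.94), to Crh Sh3rf1 (0.93), to Nts Btd (0.91) and to Cartpt Stk40 (0.96). These values share the depth and tissue makeup of each library.

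Around the 10 precursors, 36 other precursors, 23 receptors of the 10 peptides, 12 processing enzymes and their partners, 12 genes of dense-core vesicles and 11 peptide-cleaving or binding proteins were examined in the same fits. For vehicle against sham, 1 of 14 other precursors tested, 0 of 16 receptors, 1 of 12 processing genes, 1 of 12 vesicle genes and 0 of 11 cleaving proteins were called, each call higher, beside 1.47% of all genes tested. Vgf, a granin-like vesicle protein induced by activity, rose by 1.12 on the log2 scale (SE 0.21, edgeR adjusted p = 0.0169), from 144 to 192 CPM in sham to 242 to 500 CPM in vehicle mice, which did not overlap. Furin, a convertase of the trans-Golgi network, rose by 0.95 (SE 0.21, edgeR adjusted p = 0.0486), from 5.07 ± 0.959 CPM in sham to 9.61 ± 1.07 CPM in vehicle mice (SD, n = 4), and overlaps the antisense gene Gm44851. The Vgf call was made in 10 of 15 alternatives and the Furin call in 5. Lactate mouse 2 held the highest level of both genes, 782 CPM of Vgf and 17.2 CPM of Furin, and neither was called for lactate against sham.

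For lactate against sham, 3 of 14 other precursors were called (2 higher and 1 lower), 1 of 14 receptors other than Npy1r (lower), 0 of 12 processing genes, 2 of 12 vesicle genes (1 higher and 1 lower) and 1 of 11 cleaving proteins (lower). With 12.3% of all genes called in this comparison, the counts of receptors, vesicle genes and cleaving proteins are near that background. Cort, which encodes cortistatin, a relative of somatostatin that binds the same receptors, fell by 0.81 on the log2 scale (SE 0.16, edgeR adjusted p = 0.00638), while Sst itself was at 0.049. Cort was at 20.8, 31.4, 24.2 and 27.4 CPM in sham and at 14.9, 13.9, 14.8 and 14.8 CPM in lactate mice, with no overlap, and at 16.6 to 24.7 CPM in vehicle mice. Nucb2, the precursor of nesfatin-1, rose by 0.59 (SE 0.12, edgeR adjusted p = 0.00735), from 48.0 to 57.6 CPM in sham to 68.4 to 90.1 CPM in lactate mice. Vehicle mice had 55.3 to 83.9 CPM of Nucb2. Agrp, which encodes the agouti-related peptide of hypothalamic feeding neurons, was counted at 5.55 to 7.12 CPM in sham, 8.84 to 19.9 CPM in vehicle and 16.6 to 22.0 CPM in lactate mice, a rise of 1.29 with vehicle (edgeR adjusted p = 0.0361, called in 7 of 15 alternatives) and of 1.60 with lactate (edgeR adjusted p = 6.0e-05). The annotated span of Agrp is 70696 bases and overlaps Ripor1 and Ctcf on the other strand and Gm5914 and Gm45855 on its own, and the hypothalamic markers were near 0 in all mice, so this count cannot be told apart from reads of its neighbours. The calls of Cort, Nucb2 and Agrp for lactate against sham were made in 15 of 15 alternatives.

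Among receptors, Npy1r, the Y1 receptor of neuropeptide Y, had 23, 18, 12 and 23 counts in sham mice, 4, 7, 3 and 8 counts in lactate mice and 11, 5, 11 and 20 counts in vehicle mice. It passed the filter for lactate against sham only through its sham mice, so these counts are a description and no test is given. Cckbr, the main cholecystokinin receptor of the brain, fell by 0.64 (SE 0.18, edgeR adjusted p = 0.0321), and its call was made in 8 of 15 alternatives. Cckbr was at 61.6 to 86.9 CPM in sham mice, at 38.5, 64.3, 38.1 and 38.5 CPM in lactate mice and at 29.9 to 76.4 CPM in vehicle mice, so that lactate mouse 2 lay within the sham range. Chgb, a granin of the vesicle core, rose by 0.52 (SE 0.10, edgeR adjusted p = 0.00492) and was called in 15 of 15 alternatives. Chgb was at 161 to 169 CPM in sham, 181 to 276 CPM in vehicle and 199 to 256 CPM in lactate mice. For vehicle against sham its log2 fold change was 0.40 (edgeR adjusted p = 0.254). Cadps, which primes dense-core vesicles for release, fell by 0.47 (SE 0.11, edgeR adjusted p = 0.0184), a call made in 11 of 15 alternatives, and overlaps the antisense gene Gm48239. Cadps was at 70.9 to 99.6 CPM in sham, 69.7 to 106 CPM in vehicle and 56.8 to 63.6 CPM in lactate mice. Nln, or neurolysin, a peptidase that cleaves neurotensin, fell by 0.55 (SE 0.16, edgeR adjusted p = 0.0341), a call made in 7 of 15 alternatives. Nln was at 12.2 to 15.3 CPM in sham, 8.90 to 11.7 CPM in vehicle and 8.52 to 10.3 CPM in lactate mice. Between lactate and vehicle, 0 of 16 other precursors, 14 receptors, 12 processing genes, 12 vesicle genes and 10 cleaving proteins were called by edgeR, beside 0.00574% of all genes tested, and 2, 0, 1, 2 and 0 had an unadjusted p under 0.05, beside 8.84%.

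**Figure D4:**
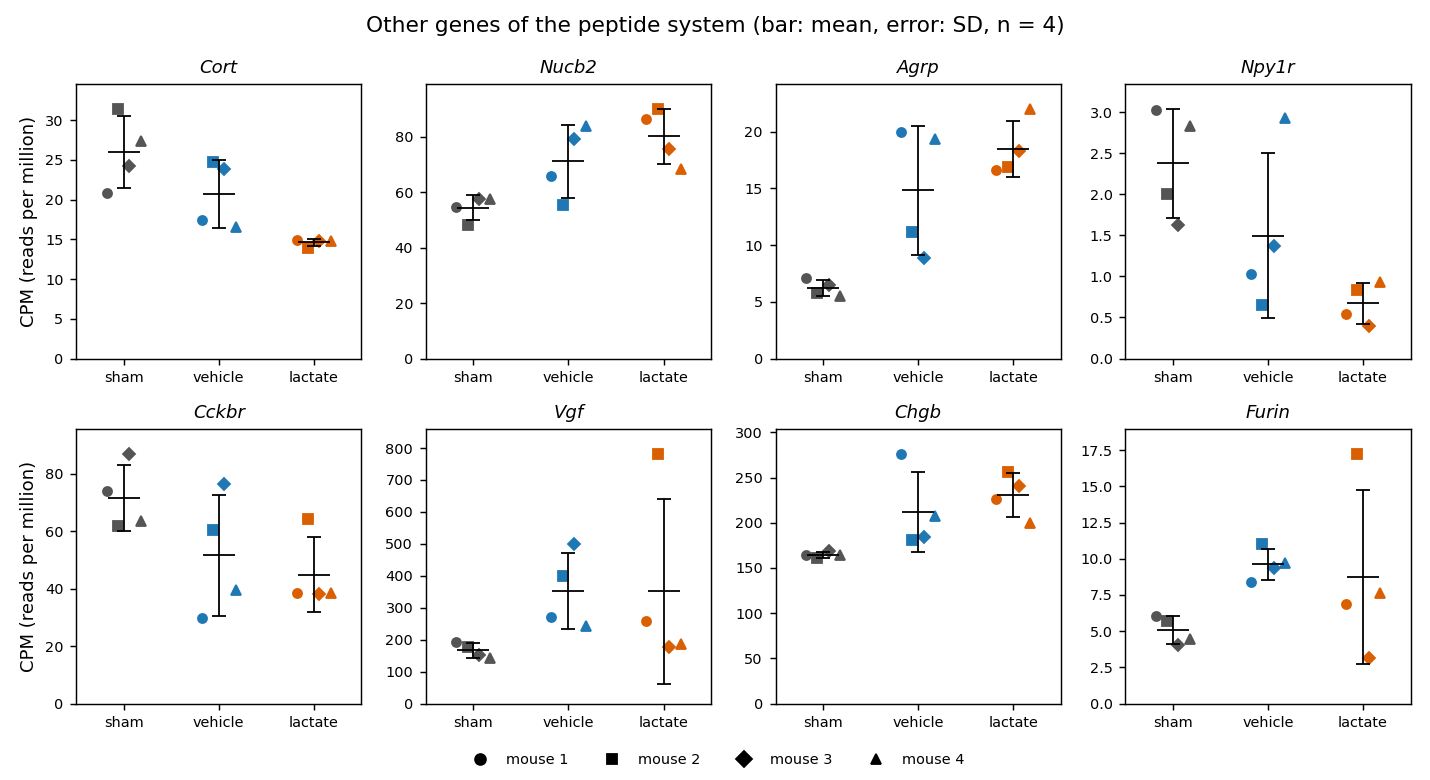
Level in CPM (vertical axis, from 0, scaled per gene) of 8 genes of the peptide system in each mouse, by group; the symbol gives the mouse number, the bar the mean and the error bar the SD of 4 mice. The sham and lactate mice do not overlap for Cort, Nucb2, Agrp and Chgb, as for 19.1% of all genes tested, and lactate mouse 2 stands above the other lactate mice for Vgf, Furin and Cckbr.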

How the data were processed

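Brain RNA of 12 mice, 4 per group, was measured by nanopore cDNA sequencing. According to the methods, the authors removed reads with low quality or under 500 bp and ribosomal RNA, mapped the rest (minimap2), built polished isoforms (pinfish) and matched these to known transcripts (gffcompare), and the submitters' processing notes name GRCm38 and DESeq 1.10.1. The counting tool and annotation are not given in the sources used here. The deposited count values are whole reads per gene without normalization, and the deposited CPM values are those counts divided by the total of each mouse, by the authors. Columns of the authors' own comparisons (P values, fold changes and direction) were not used. The 4 lines without a gene were left out, 27 symbols that the table holds as dates were restored, and 0 columns of per-sample values were left out.

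Groups came from the labels. For each pair, a quasi-likelihood test was fitted to its 8 mice (edgeR 4.0.16 under R 4.3.3, TMM factors, a minimum CPM of 1 in 4 or more mice, Benjamini-Hochberg adjustment over all genes tested, called under 0.05). SE and 95% intervals were derived from the F statistic. The p-values set a group difference against the spread between these mice. The labels do not say how the mice were bred or batched, so a batch shared by a group cannot be told apart from its treatment. Alternatives were DESeq2 1.42.0, limma 3.58.1 (voom with quality weights), RLE factors, no filter, all 12 mice in one fit, a block, genes with an Ensembl identifier only, the study's limits, and leaving out each mouse. On data simulated with 2-fold changes, the fits of the 3 comparisons recovered 122 of 194, 130 of 196 and 128 of 196 changed genes. False calls numbered 6, 8 and 5. The simulation gave every gene the same spread, so it does not give the recovery for the 10 genes. Named were all 10 genes, called genes of the lists (at most 4 per list and comparison, and not all called markers of cell types are printed) and the gene most alike to each member. A marker gene of 1 list is not reported here and was left out of its sum. Members and lists were chosen with earlier results of these data known. The rest used Python 3.11.15 (pandas 2.3.3, numpy 2.4.6, matplotlib 3.10.9, scipy 1.17.1).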

Additional observations from a re-analysis of the deposited data

Results flagged for a closer look

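In 2 of 30 groups of 4 mice (10 genes in 3 groups), 1 mouse lay far from the other 3 by Dixon's criterion, which chance alone meets in about 1 of 20 groups. Sst was at 214 CPM in lactate mouse 2, with the other 3 lactate mice between 147 and 156 CPM. Tac1 was at 187 CPM in vehicle mouse 3, with the other 3 vehicle mice between 40.9 and 58.8 CPM. Penk in vehicle mouse 3, at 265 CPM, missed the criterion narrowly, with a gap to the next mouse of 0.8288 of the group's range, and Nts in vehicle mouse 3, at 76.6 CPM, had a gap of 0.8097.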

How the results depend on the processing

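Of 450 alternative log2 fold changes of the 10 genes, 391 kept direction and side of the threshold, 9 lost a call, 4 gained one and 46 turned sign, all 46 without a call before or after. The number of the 10 genes called for lactate against sham ranged from 0 to 2 when 1 mouse was left out, was 0 with all 12 mice in one fit, 0 with only genes that have an Ensembl identifier and 2 with the study's limits. It stayed at 1 with DESeq2 and with limma voom, but the gene called was then Pdyn and Penk instead of Nts. With the study's limits it was 1 for vehicle against sham. Without 1 mouse the sign turned within these ranges of the log2 fold change: for vehicle against sham, Npy -0.29 to 0.068, Vip -0.19 to 0.046, Penk -0.46 to 0.22, Tac1 -0.73 to 0.22, Cck -0.16 to 0.31, Cartpt -0.53 to 0.10. The ranges were, for lactate against sham, Sst -0.088 to 0.11, Vip -0.16 to 0.0052, Cck -0.24 to 0.22, Crh -0.25 to 0.49, Cartpt -0.47 to 0.32, and, for lactate against vehicle, Npy -0.18 to 0.17, Vip -0.16 to 0.081, Pdyn -0.059 to 0.46, Tac1 -0.017 to 0.92, Cck -0.17 to 0.0061, Nts -1.30 to 1.09, Cartpt -0.34 to 0.60.

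With limma voom the log2 fold change against sham in lactate mice was -0.034 for Sst, -0.067 for Crh and -0.23 for Cartpt, and against vehicle mice 0.019 for Vip, -0.047 for Pdyn and -0.15 for Cartpt. Without the filter it was -0.0042 for Sst and -0.044 for Cck (lactate against sham), and with Ensembl genes only 0.0079 for Npy (lactate against vehicle). The cause was not tested. Replicate numbers are shared between groups but belong to different mice, and same-numbered mice did not deviate together throughout (correlations of -0.17 to 0.18). With the number as a block, 0, 1 and 0 of the 10 genes were called in the 3 comparisons, and the log2 fold change turned to -0.11 for Penk (vehicle against sham), -0.083 for Cartpt (lactate against sham) and 0.20 for Nts (lactate against vehicle). The lowest counts of a member in a mouse were 12 for Crh and 11 for Nts.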
